A study of Mus musculus with 15 samples.

Results

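Among the signals that pass between lymphatic endothelial cells and immune cells, 9 genes are described here in lymphatic endothelial cells of melanoma-bearing mice. They are 4 cytokine genes (Il7, Il33, Il6 and Csf1) and 5 receptor genes (Il27ra, Csf2rb, Csf2rb2, Ltbr and Tnfrsf11a), taken by name from a table of 21839 genes, and all 9 passed the filter on low counts that left 13887 genes. The list was put together with the levels of these genes in the same libraries known. Their levels and fold changes are therefore given as descriptions with no p-value. Counts of members past the threshold of the fit over all genes are given beside the share of all genes past it, also as descriptions. P-values are given only for other genes of the same pathways.

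RNA was sequenced from cells sorted as negative for the leukocyte protein CD45 and positive for CD31 and gp38, the products of Pecam1 and Pdpn. The cells came from the tumor (Tumor), from the lymph node that drains it (TdLN) and from a node that does not (NdLN), with 5 libraries a group. All groups were C57bl/6 mice of 10 weeks that carried the same kind of graft, a lymphangiogenic mouse melanoma line, so no group came from tumor-free mice. The labels do not say whether the libraries of a group came from separate animals or pools, so every p-value below measures the spread between these libraries, which may be in part technical.

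Lymphatic endothelium lines the vessels that carry lymph and the sinuses of lymph nodes, where it meets lymphocytes, macrophages and dendritic cells. IL-7 sustains naive and memory T cells and innate lymphoid cells, IL-33 is a nuclear cytokine released on damage that acts on cells bearing ST2, IL-6 acts through gp130, and CSF-1 sustains macrophages. On the receiving side, IL-27 receptor alpha pairs with gp130, and the beta common chain encoded by Csf2rb passes on GM-CSF, IL-3 and IL-5. Mice have a second beta chain gene, Csf2rb2, whose product is specific for IL-3. The lymphotoxin beta receptor and RANK (Tnfrsf11a) are receptors of the TNF family that act through noncanonical NF-kB, and RANK in lymphatic endothelium takes part in keeping the macrophages of lymph node sinuses.

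Total counts per library ranged from 23830337 to 37437282. Prox1, the transcription factor of lymphatic identity, was detected in every library, at 674 to 810 CPM (counts relative to the library's total after TMM normalization) in NdLN, 441 to 625 CPM in TdLN and 73.5 to 132 CPM in Tumor libraries. Genes of pigment cells summed to 12.0 to 37.6 CPM in node libraries and 24129 to 39608 CPM in Tumor libraries, and all 8 listed genes in the table were called higher in Tumor. Genes of fibroblasts and reticular cells summed to 162 to 627 CPM in the nodes and 1408 to 10358 CPM in Tumor, with 9 of 12 called higher against TdLN. Genes of macrophages and dendritic cells summed to 9.09 to 47.1 and 107 to 239 CPM, with 8 of 10 tested called higher against TdLN. Genes of T, B and innate lymphoid cells stayed at 5.34 to 30 CPM in the nodes and 12.4 to 19.5 in Tumor. Those of mast cells and granulocytes, of which nearly all counts were Kit, were at 7.50 to 32.3 and 6.35 to 26.2 CPM. Fcer1a and Elane were at 0 in every TdLN library, Mcpt4, Fcer1a and S100a9 in every Tumor library, and Flt3 in every TdLN library. Genes of blood and high endothelial venule endothelium summed to 3234 to 7601 CPM in the nodes and 326 to 1143 in Tumor. The part of these cell types in the differences between Tumor and node libraries was not tested. In bulk RNA, fewer cells of a type and less RNA per cell cannot be told apart.

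In the nodes, mean levels of the 9 genes ran from 2.98 CPM (Il6 in TdLN) to 1998 CPM (Csf1 in NdLN), and in the tumor 7 of them were far lower, by log2 fold changes between -2.20 (Il7) and -10.07 (Csf2rb2) against TdLN. The 2 others stood apart: Ltbr stayed near its node level, and the Il6 libraries of Tumor overlapped those of NdLN and TdLN. Between the nodes, the log2 fold changes of the members ran from -1.33 (Il6) to 0.63 (Il33). In edgeR's quasi-likelihood test with Benjamini-Hochberg adjustment over all genes, no member passed at 0.05 between TdLN and NdLN (0 higher, where 1.84% of all genes were, and 0 lower, where 1.64% were). At an unadjusted p under 0.05 there were 3, and the share of all genes at that p is not given here. DESeq2 and limma's voom called 1 member each, lower in TdLN, beside 986 and 818 of all genes in either direction. The same test called 8 of the 9 lower and 1 higher, Il6, in Tumor against TdLN, where 30.1% and 31.9% of all genes were called. Against NdLN it called 7 lower and 0 higher, where 32.5% and 34% were. Since the members were selected on such values, nothing is read from these counts.

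**Figure D1:**
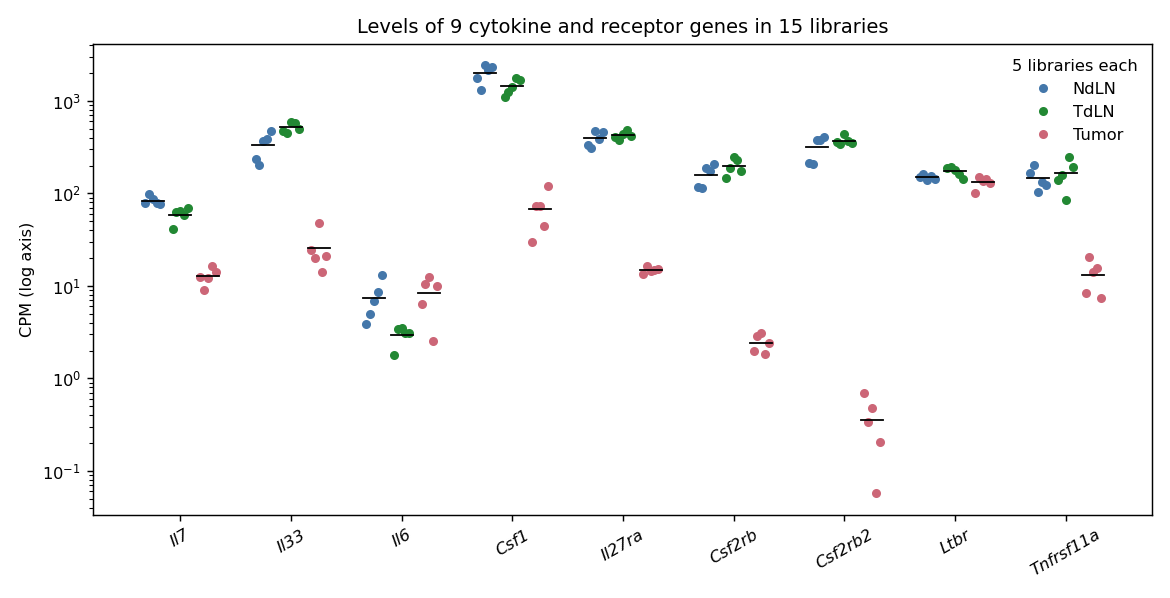
Level of each of the 9 genes in every library, in CPM on a log axis, with 5 points a group and the group mean as a black line. For 7 genes the Tumor points lie below all node points, while the Ltbr and Il6 points of Tumor overlap those of NdLN.

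Il7 encodes interleukin 7 and lies on the minus strand of chromosome 3 (ENSMUSG00000040329, GRCm38, 7569994 to 7613760). Its level in NdLN libraries 1 to 5 was 78.4, 98.5, 86.8, 78.8 and 76.3 CPM. In TdLN it was 41.0, 62.4, 64.6, 57.9 and 69.5 CPM, and in Tumor 12.6, 8.95, 12.3, 16.4 and 14.2 CPM. The 3 groups did not overlap, in the order NdLN, TdLN, Tumor, with means of 83.8 ± 9.16, 59.1 ± 10.9 and 12.9 ± 2.74 CPM (SD, n = 5). The log2 fold change was -0.50 ± 0.16 (SE) for TdLN against NdLN, -2.20 ± 0.17 for Tumor against TdLN and -2.70 ± 0.17 for Tumor against NdLN. With libraries scaled to Prox1 instead of all counts, all 3 differences of Il7 turned to the other side of 0 (0.02, 0.22 and 0.23). The median of all genes moved by that scaling as well, to 0.52, 2.43 and 2.96, and Il7 remained below it. An antisense gene, Gm16685, overlaps Il7 exons and was not analysed here. Whether the counting used strand is not known, so its reads may be among those of Il7.

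The genes by which a cell reads IL-7 were measured alongside. Il7r, the specific receptor chain, was close to absent from all groups, with 152 counts over the 5 NdLN libraries, 44 over TdLN and 3 over Tumor. Il2rg, the common gamma chain, was abundant in NdLN, at 2395 ± 410 CPM, and in TdLN, at 2863 ± 221 CPM, and fell to 278 ± 37.2 CPM in Tumor (log2 fold change -3.36 ± 0.14 against TdLN, adjusted p = 4.49e-11, edgeR quasi-likelihood test). The kinases that bind these chains fell too: Jak1 from 2417 ± 175 to 273 ± 45.8 CPM (-3.15 ± 0.16, adjusted p = 3.82e-10) and Jak3 from 572 ± 44.9 to 65.5 ± 18.9 CPM (-3.13 ± 0.20, adjusted p = 4.12e-09). Of the 11 listed genes of the IL-7 and common gamma chain pathway, 9 fell and 1 rose in Tumor against TdLN, and the median log2 fold change was -1.30 where all genes tested had 0.04. Stat5b, a signal transducer of these receptors, fell by 0.87 on the log2 scale (SE 0.14), and Il15ra, which presents IL-15, fell by 1.69 on the log2 scale. The single gene that rose was Bcl2, a survival gene named here after its values were seen, at 31.2 ± 2.19 CPM in Tumor and 15.7 ± 8.44 in TdLN. Between TdLN and NdLN none of the 11 passed in either direction, and 1 had an unadjusted p under 0.05.

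Il33 (ENSMUSG00000024810, chromosome 19, plus strand, 29925114 to 29960718) encodes the alarmin IL-33. NdLN libraries 1 to 5 held 237, 201, 370, 384 and 475 CPM. TdLN libraries held 474, 450, 588, 581 and 491 CPM, and Tumor libraries 24.3, 20.0, 48.2, 14.1 and 21 CPM. Every Tumor library lay far below every node library, and the node groups overlapped through NdLN 5. Log2 fold changes were 0.63 ± 0.29 for TdLN against NdLN, -4.34 ± 0.33 for Tumor against TdLN and -3.71 ± 0.32 for Tumor against NdLN. Il33 varied among the Tumor libraries, where its SD was 51.8% of the mean.

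The receptor of IL-33 was scarce in these cells. Il1rl1, which encodes ST2, had means of 1.05 ± 0.519, 0.146 ± 0.142 and 1.79 ± 1.34 CPM in the order NdLN, TdLN and Tumor, and it rose in Tumor against TdLN (3.58 ± 0.85, adjusted p = 0.00186, edgeR) with overlapping libraries. Its coreceptor Il1rap also rose, from 10.5 ± 2.47 to 16.8 ± 4.95 CPM (0.69 ± 0.24, adjusted p = 0.0195), a call lost without Tumor 2 (0.48) or Tumor 3 (0.63). Of the 11 tested genes of the IL-33 and IL-1 receptor family, 4 rose and 3 fell against TdLN, with a median of -0.40, which is near the shares of all genes (31.9% higher, 30.1% lower). Against NdLN 2 rose and 3 fell, with a median of 0.28. Il18, a cytokine of the same family, went from 1.05 ± 0.460 to 8.09 ± 3.83 CPM (2.93 ± 0.48, adjusted p = 8.38e-05). Il1b, named after its values were seen, was the 4th riser, at 0.446 to 13.6 CPM in Tumor and at most 0.95 CPM in TdLN. The adaptor Myd88 (-1.14 ± 0.13), the kinase Irak4 (-0.65 ± 0.13) and the ligase Traf6 (-0.69 ± 0.19), which carry the signal of the family, fell. Most of the macrophage genes above were also higher in Tumor than in TdLN, and their part was not tested. Against NdLN, Il1rl1 did not pass (0.76 ± 0.75, adjusted p = 0.381, edgeR).

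Il6 (ENSMUSG00000025746, chromosome 5, plus strand, 30013114 to 30019981) encodes interleukin 6 and was the least abundant member in the nodes per kilobase of exon, at 3.08 ± 1.51 CPM per kb in NdLN and 1.23 ± 0.282 in TdLN. The 250 bases before its start in the RefSeq entry (GRCm38.p6, chr5:30012864-30013113, plus strand) are shown because its Tumor libraries, unlike those of most members, did not lie below the nodes. Capitals mark an AP-1 motif (TGANTCA) 249 bases and a kappa-B motif 44 bases before the start:
Il6: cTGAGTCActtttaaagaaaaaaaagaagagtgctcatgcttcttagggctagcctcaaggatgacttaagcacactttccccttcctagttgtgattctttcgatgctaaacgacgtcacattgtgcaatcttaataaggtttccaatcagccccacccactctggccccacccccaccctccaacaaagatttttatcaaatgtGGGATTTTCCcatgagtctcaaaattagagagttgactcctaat

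NdLN libraries 1 to 5 held 3.83, 5.01, 6.84, 8.56 and 13.2 CPM of Il6. TdLN libraries held 1.79, 3.40, 3.48, 3.10 and 3.13 CPM, and Tumor libraries 6.31, 10.5, 12.6, 2.56 and 9.85 CPM. TdLN lay below every NdLN library, while Tumor 4 fell within the range of TdLN and the other 4 Tumor libraries lay above all TdLN values. The log2 fold change was -1.33 ± 0.40 for TdLN against NdLN, 1.49 ± 0.40 for Tumor against TdLN and 0.16 ± 0.39 for Tumor against NdLN. That last value turned negative in limma's voom (-0.27) and when NdLN 1 and NdLN 2 were left out together (-0.20). In Tumor against TdLN, voom gave 1.09 ± 0.58 and made no call. Together with Il7, Il6 was 1 of 2 members whose TdLN libraries all lay below all NdLN libraries, a pattern of 4.95% of all genes, and 0 members had the opposite pattern, that of 2.87%.

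Genes of fibroblasts and reticular cells differed in their order across the Tumor libraries. The gene most like Il6 across the 15 libraries was Dcn, a proteoglycan gene of fibroblasts and reticular cells (Pearson's r of 0.876 over log2 CPM, and 0.81 after group means were removed). Dcn had 294, 354, 361, 117 and 643 CPM in Tumor libraries 1 to 5, so Tumor 4 was lowest in both genes. Dcn was picked for this likeness, and other genes of its list went both ways. Lum, Mfap5 and Pdgfra were also lowest in Tumor 4. Col1a1, Col1a2, Col3a1, Pdgfrb, Fap and Cxcl13 were lowest in Tumor 1, Thy1 in Tumor 2 and Ccl19 in Tumor 3. Col1a1 had 101, 1486, 991, 780 and 2478 CPM in the same libraries. The list's sum was lowest in Tumor 1 (1408 CPM) and not in Tumor 4 (2816 CPM). The part of fibroblast RNA in the level of Il6 was not tested.

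Il6st, the gp130 chain shared by the receptors of IL-6 and IL-27, had 2061 ± 218 CPM in NdLN, 1442 ± 246 CPM in TdLN and 118 ± 34.8 CPM in Tumor. It fell in Tumor against TdLN (-3.61 ± 0.21, adjusted p = 1.23e-09, edgeR). Its TdLN libraries also lay below all NdLN libraries, but that difference (-0.52 ± 0.19) had an adjusted p = 0.160. Il6ra, the ligand-binding chain, was low at 4.07 ± 1.21, 1.87 ± 1.41 and 2.38 ± 1.56 CPM in NdLN, TdLN and Tumor. The partner chains Lifr (-4.42 ± 0.17) and Osmr (-2.98 ± 0.22), for LIF and oncostatin M, fell in Tumor against TdLN.

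Socs3, the inhibitor induced by gp130 signals, was the single gene among 65 tested pathway genes that passed between the nodes. It was at 1756, 1789, 1980, 1457 and 1978 CPM in NdLN and at 970, 809, 799, 1089 and 920 CPM in TdLN, with no overlap. It fell by 0.97 on the log2 scale (SE 0.22, adjusted p = 0.0242, edgeR quasi-likelihood test), and it was lower again in Tumor, at 203 ± 79.2 CPM (-2.18 ± 0.22 against TdLN, adjusted p = 8.16e-07). The call between the nodes was lost when any 1 of NdLN 2, NdLN 3, NdLN 5, TdLN 1, TdLN 2 or TdLN 3 was left out, with log2 fold changes of -1.04 to -0.92 over all single libraries left out. Of 19 genes of the IL-6, gp130 and IL-27 list, 10 fell and 2 rose in Tumor against TdLN, with a median of -0.97. Il11ra1, at 63.1 ± 5.48 CPM in TdLN and 80.9 ± 15.5 in Tumor and named after its values were seen, and Il27 were the 2 that rose. The call of Il11ra1 (0.36 ± 0.14, adjusted p = 0.0351, edgeR) was lost without any 1 of TdLN 2, TdLN 4, TdLN 5, Tumor 1, Tumor 2, Tumor 3 or Tumor 5 (0.26 to 0.36), with upper quartile factors (0.31), with only the compared groups (0.34) and with voom (0.29). Il12a, also named after its values were seen, had 251 counts in TdLN and 0 in Tumor, which puts it at least 81.7-fold lower against a floor of 3 counts over the group.

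Csf1 (ENSMUSG00000014599, chromosome 3, minus strand, 107741048 to 107760469) encodes CSF-1, the growth factor of macrophages. Its promoter window of 250 bases (RefSeq, GRCm38.p6, chr3:107760470-107760719, minus strand) is shown because Csf1 was the most abundant member in both nodes per kilobase. Capitals mark a kappa-B motif 154 bases before the start:
Csf1: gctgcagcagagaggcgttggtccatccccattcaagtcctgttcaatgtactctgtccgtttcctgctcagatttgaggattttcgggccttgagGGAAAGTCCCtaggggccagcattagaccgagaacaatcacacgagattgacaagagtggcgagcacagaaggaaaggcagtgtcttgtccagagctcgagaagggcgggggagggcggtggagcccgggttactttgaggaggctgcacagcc

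Csf1 held 1781, 1323, 2421, 2160 and 2307 CPM in NdLN libraries 1 to 5. TdLN libraries held 1102, 1234, 1430, 1783 and 1685 CPM, and Tumor libraries 29.5, 73.9, 73.9, 44.2 and 120 CPM. The node groups overlapped and Tumor lay far below both. These levels gave log2 fold changes of -4.41 ± 0.34 for Tumor against TdLN, -4.87 ± 0.34 for Tumor against NdLN and -0.47 ± 0.29 for TdLN against NdLN, a difference of the nodes that became 0.05 with libraries scaled to Prox1. Tumor 5, the highest Tumor library, held 4.05 times the Csf1 of Tumor 1, the lowest.

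Csf1r, the receptor of CSF-1 and a gene of macrophages, was low in the nodes and rose in Tumor. It was at 1.64 ± 1.46 CPM in TdLN and 8.15 ± 5.76 in Tumor (2.31 ± 0.74, adjusted p = 0.0135, edgeR). Of the 10 tested genes of macrophages and dendritic cells 8, Csf1r among them, were called higher against TdLN, and Ptprc and Itgax were not. The part of these cells was not tested. Against NdLN, Csf1r rose by 2.03 ± 0.73, a call lost without NdLN 2 (1.91), Tumor 5 (1.57) or NdLN 1 and NdLN 2 together (1.53). The remaining colony-stimulating factors were low: Csf2, which encodes GM-CSF, was at 1.44 ± 0.946 CPM in TdLN and 0.275 ± 0.325 in Tumor (-2.39 ± 0.84, adjusted p = 0.0210, lost without TdLN 5 at -1.94 and with the replicate block at -2.50), and Csf3, which encodes G-CSF, at 4.42 ± 2.70 and 0.253 ± 0.327 CPM (-4.06 ± 0.84, adjusted p = 0.000634). Kitl, which encodes stem cell factor, fell from 25.5 ± 7.94 to 7.92 ± 3.07 CPM. Of 8 tested genes of the colony-stimulating factor list 5 fell and 1, Csf1r, rose in Tumor against TdLN, with a median of -1.73.

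Il27ra (ENSMUSG00000005465, chromosome 8, minus strand, 84030294 to 84042589) encodes the alpha chain of the IL-27 receptor. NdLN libraries 1 to 5 held 336, 312, 474, 391 and 458 CPM. TdLN libraries held 407, 379, 438, 483 and 419 CPM, and Tumor libraries 13.3, 16.6, 14.5, 14.8 and 15.4 CPM. The node groups overlapped over most of their range, and the Tumor libraries were the most even of any member, with an SD of 1.22 CPM around a mean of 14.9. The log2 fold change was 0.11 ± 0.12 for TdLN against NdLN, -4.83 ± 0.14 for Tumor against TdLN and -4.72 ± 0.14 for Tumor against NdLN. Both chains of the receptor, Il27ra and Il6st, were thus low in the same libraries. The 2 genes of the ligand were near the floor: Il27 had 10, 22 and 119 counts and Ebi3 172, 106 and 45 counts over the NdLN, TdLN and Tumor libraries. Il27 rose in Tumor against TdLN (2.41 ± 0.98, adjusted p = 0.0433, edgeR) from 0.127 ± 0.133 to 0.691 ± 0.373 CPM. That call was lost when any 1 of 8 libraries was left out, all but TdLN 4 and Tumor 1, with values of 2.06 to 2.50, and with no filter on low counts (2.41). Ebi3 did not pass the test (adjusted p = 0.285).

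Csf2rb (ENSMUSG00000071713, chromosome 15, plus strand, 78325752 to 78353847) and Csf2rb2 (ENSMUSG00000071714, the same chromosome, minus strand, 78282507 to 78305721) lie side by side and encode the 2 mouse beta chains. The promoter window of Csf2rb2 (RefSeq, GRCm38.p6, chr15:78305722-78305971, minus strand) is shown because this gene had the lowest fold change of all members. Capitals mark a STAT motif (TTCNNNGAA) 15 bases before the start:
Csf2rb2: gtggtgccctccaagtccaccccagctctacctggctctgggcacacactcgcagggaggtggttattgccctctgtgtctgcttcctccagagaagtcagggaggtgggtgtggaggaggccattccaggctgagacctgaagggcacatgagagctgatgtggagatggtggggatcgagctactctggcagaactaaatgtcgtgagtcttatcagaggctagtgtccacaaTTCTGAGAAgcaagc

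Csf2rb held 117, 115, 186, 173 and 209 CPM in NdLN and 145, 190, 249, 231 and 173 CPM in TdLN. In Tumor it held 1.97, 2.86, 3.06, 1.84 and 2.43 CPM, from 414 counts. The node groups overlapped (log2 fold change 0.31 ± 0.20) and Tumor lay far below both (-6.34 ± 0.25 against TdLN, -6.03 ± 0.25 against NdLN).

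Csf2rb2 held 213, 209, 375, 378 and 410 CPM in NdLN and 359, 338, 438, 370 and 350 CPM in TdLN. In Tumor it was close to absent, at 0.696, 0.341, 0.478, 0.0575 and 0.203 CPM, from 56 counts in all. Its log2 fold change was 0.23 ± 0.28 for TdLN against NdLN, -10.07 ± 0.43 for Tumor against TdLN and -9.84 ± 0.43 for Tumor against NdLN.

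Csf2rb2 took most of the counts of the pair in the nodes and few in the tumor. Its share of the counts of both genes was 66.2% ± 1.71 in NdLN (SD, n = 5), 65.5% ± 3.73 in TdLN and 12.2% ± 8.72 in Tumor. No Tumor library passed 26.2% (Wilson 95% interval 17.0 to 38.0, counting error only, Tumor 1) and no node library was under 61.5%. The genes share sequence, which leaves their split uncertain: 12.3% of the stretches of 50 bases in Csf2rb transcripts and 18.9% of those in Csf2rb2 transcripts also occur in other genes, nearly all in the partner gene. Summed over both genes, which does not depend on how reads were split between them, the log2 fold change was -7.67 ± 0.26 for Tumor against TdLN and -7.41 ± 0.26 for Tumor against NdLN.

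**Figure D2:**
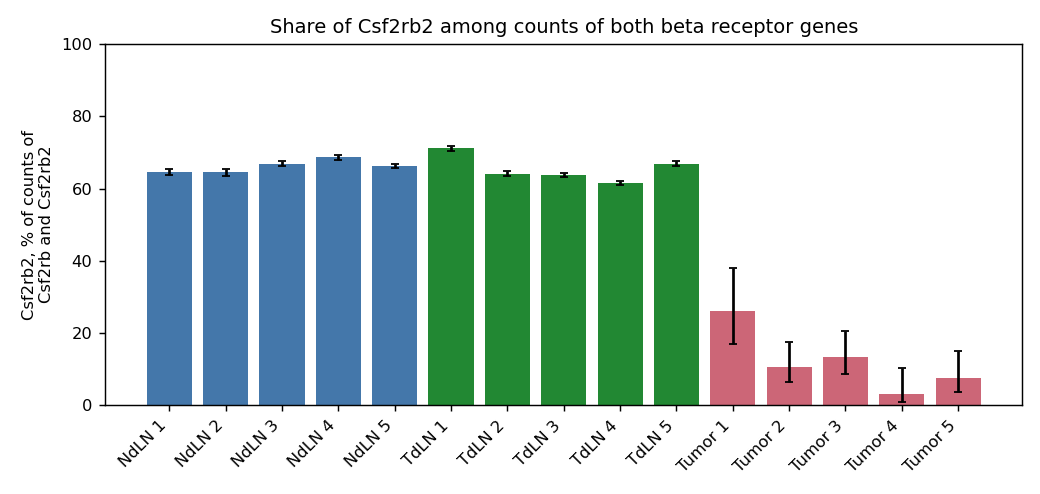
Share of Csf2rb2 among the summed counts of Csf2rb and Csf2rb2 in each library, in percent, with bars coloured by group and Wilson 95% intervals for counting error. The 10 node libraries lie between 61.5% and 71.2% and the 5 Tumor libraries between 3.03% and 26.2%.

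The alpha chains that bind the ligands beside these beta chains were measured as well. Csf2ra, for GM-CSF, was at 5.48 ± 1.00, 6.49 ± 1.51 and 3.08 ± 0.749 CPM in NdLN, TdLN and Tumor and fell by 1.08 on the log2 scale in Tumor against TdLN (SE 0.23, adjusted p = 0.000824, edgeR). Il3ra, for IL-3, was at 45.7 ± 4.97, 50.3 ± 4.34 and 13.4 ± 5.10 CPM and fell by 1.90 (SE 0.22, adjusted p = 3.09e-06). Il5ra had 0 counts in all 15 libraries. In TdLN, Csf2rb2 was at 78.2 ± 8.30 CPM per kb of exon, Csf2rb at 27.2 ± 5.83, Il3ra at 17.0 ± 1.46 and Csf2ra at 2.26 ± 0.525.

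Ltbr (ENSMUSG00000030339, chromosome 6, minus strand, 125306571 to 125313885) encodes the lymphotoxin beta receptor, through which lymphocytes maintain lymph node stroma. NdLN libraries held 152, 163, 139, 154 and 143 CPM. TdLN libraries held 190, 193, 178, 164 and 143 CPM, and Tumor libraries 101, 151, 135, 144 and 128 CPM. All 3 groups overlapped, with Tumor 1 the lowest. The log2 fold change was 0.21 ± 0.11 for TdLN against NdLN, -0.40 ± 0.11 for Tumor against TdLN and -0.19 ± 0.11 for Tumor against NdLN. Both Tumor differences of Ltbr turned positive with other scales, to 1.95 and 2.70 with libraries scaled to Prox1 and to 0.43 and 0.88 with the lymphatic marker list. The median of all genes moved as well, to 2.43 and 2.96 with Prox1 and to 0.88 and 1.12 with the list. Ltbr remained below that median on each scale. Per kilobase Ltbr was the 5th of the 9 genes in either node and the highest in Tumor, at 55.9 ± 8.08 CPM per kb, where Csf1 followed at 12.9 ± 6.54 with no overlap.

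The ligand gene Ltb and several, but not all, genes of the signal chain of this receptor were lower in the tumor. Ltb, which encodes lymphotoxin beta, had a mean of 369 ± 81.9 CPM in NdLN and 308 ± 60.5 CPM in TdLN, against 8.35 ± 4.33 CPM in Tumor (-5.20 ± 0.34 against TdLN, adjusted p = 6e-09, edgeR). Lta, which encodes lymphotoxin alpha, and Tnfsf14, which encodes LIGHT, the other ligand of this receptor, were under the filter, with at most 21 and 31 counts in any group. The noncanonical NF-kB subunits Nfkb2 (370 ± 30.1 to 45.6 ± 13.4 CPM, -3.02 ± 0.20) and Relb (297 ± 94.6 to 39.6 ± 3.14 CPM, -2.90 ± 0.20) fell. Birc3, an inhibitor of this branch, fell by 4.18 on the log2 scale, from 190 ± 33.7 to 10.5 ± 1.91 CPM. The adaptors Traf2 (-0.74 ± 0.09) and Traf3 (-0.71 ± 0.21) fell, and Chuk, which encodes the kinase IKK-alpha of this branch, did not pass (0.24 ± 0.18, adjusted p = 0.263, edgeR), all 3 named after their values were seen.

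Tnfrsf11a (ENSMUSG00000026321, chromosome 1, plus strand, 105780718 to 105847981) encodes RANK. NdLN libraries held 166, 205, 103, 134 and 122 CPM. TdLN libraries held 139, 159, 84.8, 249 and 194 CPM, and Tumor libraries 8.35, 20.7, 14.1, 15.6 and 7.39 CPM. The node groups overlapped throughout, TdLN spanned the wider range, and Tumor lay below both. As log2 fold changes, the differences were 0.18 ± 0.30 for TdLN against NdLN, -3.64 ± 0.34 for Tumor against TdLN and -3.46 ± 0.34 for Tumor against NdLN. Without TdLN 4 the first of these became -0.02.

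The 2 ligand-side genes of RANK went apart. Tnfsf11, which encodes the ligand RANKL, was at 1.61 ± 1.73, 0.488 ± 0.293 and 0.200 ± 0.331 CPM in NdLN, TdLN and Tumor, and its fall passed against NdLN (-2.97 ± 1.11, adjusted p = 0.0281, edgeR) but not against TdLN (adjusted p = 0.328). The call against NdLN was lost without any 1 of NdLN 4, NdLN 5, Tumor 1, Tumor 2 or Tumor 3 (-2.87 to -2.35). Tnfrsf11b, which encodes the decoy receptor osteoprotegerin, ranged from 0 to 0.228 CPM over the NdLN libraries, from 0 to 0.432 CPM over TdLN and from 22.8 to 27.0 CPM over Tumor. It rose by a log2 fold change of 7.32 ± 0.83 against TdLN (adjusted p = 2.15e-06, edgeR), the highest among all 65 tested pathway genes. Pigment genes and most fibroblast genes were also higher in Tumor, and their part was not tested. Of the 16 tested genes of the lymphotoxin, RANK and noncanonical NF-kB list, 10 fell and 2 rose in Tumor against TdLN, with a median of -1.13. Cd40, a TNF family receptor named after its values were seen, was the other riser, at 34.1 ± 4.32 and 76.3 ± 17.2 CPM in TdLN and Tumor. Between the nodes 0 of the 16 passed in edgeR, 1 of them at an unadjusted p under 0.05.

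Over all 65 tested pathway genes, 37 fell and 10 rose in Tumor against TdLN, where 30.1% of all genes fell and 31.9% rose. In Tumor against NdLN 36 fell and 8 rose, where 32.5% of all genes fell and 34% rose. Between the nodes 1 fell and 0 rose in edgeR, with 12 at an unadjusted p under 0.05. DESeq2 called 3 lower there and limma's voom 4. The median log2 fold change of the pathway genes was -0.97, -0.83 and -0.01 in the 3 comparisons, against 0.04, 0.04 and -0.01 for all genes tested. For the 9 selected genes it was -4.34, -3.71 and 0.18. The comparisons share libraries, so their counts are not independent. Pathway genes were not rescaled to Prox1 or to the lymphatic list. On those scales the median log2 fold change of all genes in Tumor against TdLN was 2.43 and 0.88. Whether the falls of pathway genes hold there was not tested.

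**Figure D3:**
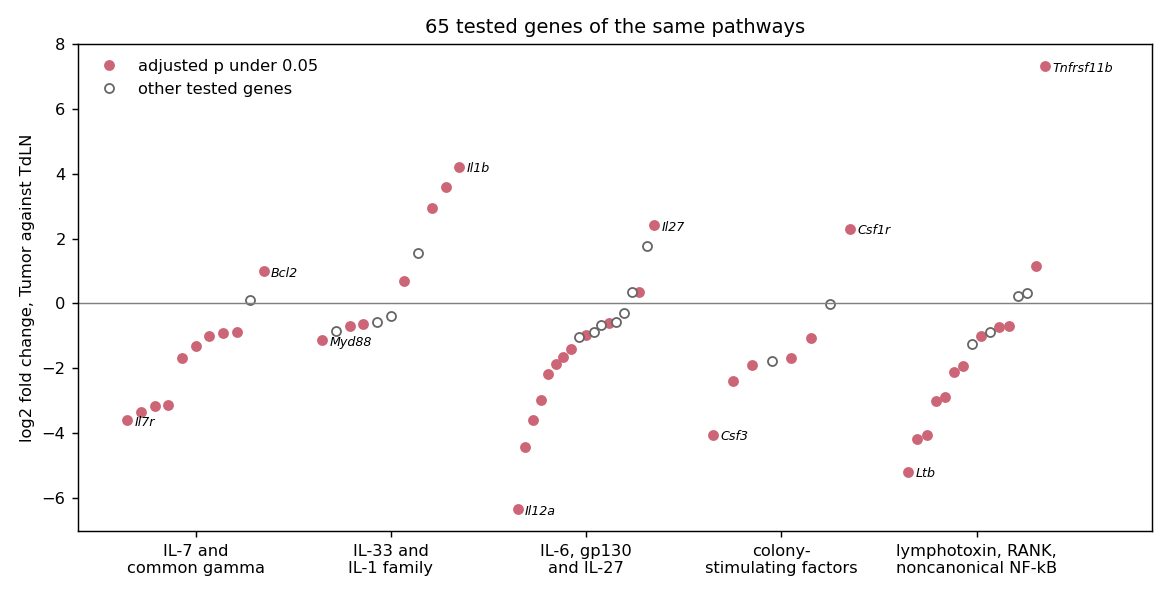
Log2 fold change, Tumor against TdLN, of 65 tested pathway genes in 5 lists, ordered by value within each list. Filled points have an adjusted p under 0.05 in edgeR's quasi-likelihood test (10 above and 37 below 0), the lowest and highest gene of each list is named, and Il12a, with 0 counts in Tumor, stands at its bound of -6.35.

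The 9 genes did not keep 1 order of levels. Per kilobase of exon, NdLN ran from Csf1 (378 ± 84.8 CPM per kb) through Il33 (115 ± 39.0), Il27ra (113 ± 20.5), Csf2rb2 (66.9 ± 20.7), Ltbr (63.8 ± 4.07), Tnfrsf11a (24.4 ± 6.68), Csf2rb (22.0 ± 5.80) and Il7 (14.8 ± 1.62) to Il6. TdLN had the same order, from Csf1 at 274 ± 54.8 to Il6. In NdLN the neighbours Il33 and Il27ra, Csf2rb2 and Ltbr, Tnfrsf11a and Csf2rb, and Csf2rb and Il7 overlapped across libraries, and in TdLN Csf2rb2 and Ltbr did, as did Tnfrsf11a and Csf2rb. In Tumor the order was Ltbr, Csf1, Il33 (8.85 ± 4.58), Il27ra (4.27 ± 0.349), Il6 (3.44 ± 1.62), Il7 (2.28 ± 0.484), Tnfrsf11a (2.21 ± 0.918), Csf2rb (0.334 ± 0.0737) and Csf2rb2 (0.0749 ± 0.0520). There, Csf1 overlapped Il33, and Il27ra, Il6 and Il7 each overlapped the next, while Tnfrsf11a did not overlap Csf2rb.

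Libraries of 7 members did not overlap between Tumor and TdLN, all lower in Tumor, where 22.5% of all genes had that pattern, and 0 members had the opposite one, that of 24.1%. Against NdLN the numbers were 7 and 0, beside 27% and 27.7% of all genes. The sort by CD31 and gp38 was the same in all groups, but Prox1 and the summed lymphatic list (7477 to 9787 CPM in NdLN, 6426 to 8040 in TdLN and 3402 to 4791 in Tumor) were lower in Tumor libraries. The 8 lymphatic genes did not move as 1 against TdLN: 4 were called lower and 2 higher, Ccl21a (135 ± 71.0 to 1227 ± 367 CPM) and Reln (35.4 ± 7.81 to 83.7 ± 23.3 CPM), so the scales made from Prox1 and from the list differ. With libraries scaled to Prox1, the log2 fold change of Tumor against TdLN was -7.68 for Csf2rb2, -3.97 for Csf2rb, -2.44 for Il27ra, -2.02 for Csf1, -1.98 for Il33 and -1.34 for Tnfrsf11a. Scaled to the lymphatic list, these 6 genes and Il7 had values from -9.21 (Csf2rb2) to -1.36 (Il7). Il6 was higher under all 3 scales, and Ltbr turned from lower to higher but stayed below the median of all genes (2.43 with Prox1 and 0.88 with the list).

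**Figure D4:**
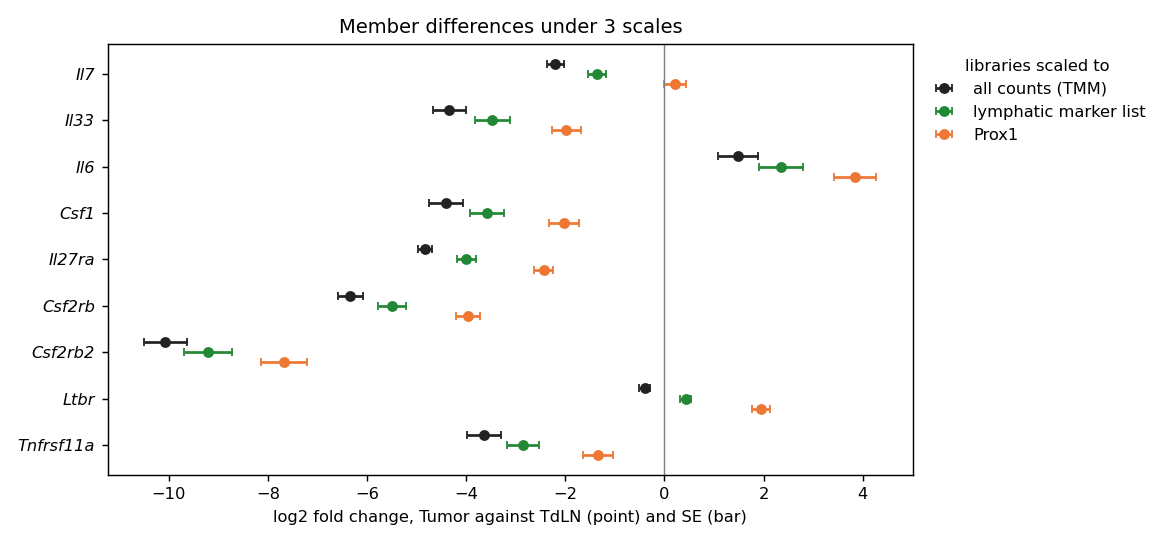
Log2 fold change of each member, Tumor against TdLN, with libraries scaled to all counts, to the lymphatic marker list or to Prox1, as points with SE bars. Values of 6 genes stay below 0 on every scale, Il6 stays above 0, Il7 crosses 0 on the Prox1 scale (0.22) and Ltbr on both others (0.43 and 1.95). The median of all genes is 0.88 on the list scale and 2.43 on the Prox1 scale.

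Within NdLN the libraries split in blocks, NdLN 1 and NdLN 2 against NdLN 3 to 5, a split chosen after the data were seen. It was also the largest axis of variation of all genes tested within NdLN, with 44.1% of the variance. The counts of members that follow are therefore descriptions. NdLN 1 and NdLN 2 were both lower than NdLN 3 to 5 in 6 of 9 members (Il33, Il6, Csf1, Il27ra, Csf2rb and Csf2rb2), a pattern of 15.1% of all genes tested, and both higher in Tnfrsf11a, a pattern of 19.3%. The same 2 libraries had a higher sum of blood and high endothelial venule genes (5986 and 6463 CPM against 3316 to 3779). Nearly all of that came from Plvap (4180 and 5003 CPM against 923 to 1458), and Emcn was also higher in both. Glycam1 (1181 and 709 CPM against 1641 to 2091), Flt1 (13.6 and 12.1 CPM against 31.6 to 37.8), Sele and Fut7 were lower in both, and the list's remaining genes overlapped. They held fewer counts of macrophage genes (9.09 and 16.4 CPM against 29.8 to 39.1) and of lymphoid genes (9.28 and 15.8 CPM against 23.9 to 30). The part of these cell types in the node levels of the members was not tested. Without both libraries the TdLN against NdLN values became 0.34 for Il33, -0.67 for Csf1, -1.68 for Il6, 0.06 for Csf2rb, -0.06 for Csf2rb2 and -0.05 for Il27ra.

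**Figure D5:**
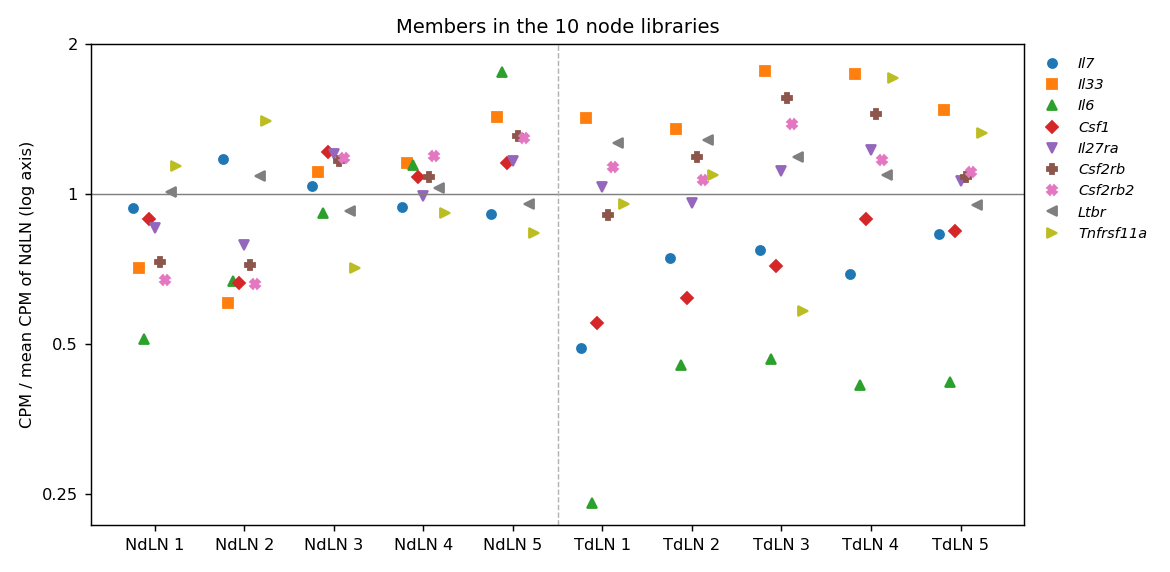
Level of each member in the 10 node libraries, as CPM divided by the mean CPM of NdLN, on a log axis. NdLN 1 and NdLN 2 lie below 1 for most members and above 1 for Tnfrsf11a, and all TdLN points of Il7 and Il6 lie below 1.

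The 2 genes most like each member across the 15 libraries were sought among 9596 genes by Pearson's r of log2 CPM. The tumor and node libraries form separate clusters that set most of each r, so these are descriptions with no p, and r after removal of group means is given second. Il27ra and Csf2rb shared their nearest gene, the tetraspanin gene Tspan7 (0.998 and 0.79 for Il27ra, 0.998 and 0.76 for Csf2rb), and Csf2rb was also close to Il27ra itself (0.997 and 0.76). Csf2rb2 was closest to Relt (0.995 and 0.88), a TNF receptor family gene, and to Clec4g (0.995 and 0.76), a C-type lectin gene. Csf1 followed the transporter gene Slc22a4 (0.994 and 0.86), Il7 the cathepsin gene Ctsf (0.992 and 0.80) and Il33 Nxph1 (0.991 and 0.80). Tnfrsf11a followed Thsd4 (0.988 and 0.87), and Ltbr, with the smallest range, followed the extracellular matrix gene Emilin1 (0.954 and 0.92). Tspan7 itself went from 1116 to 1668 CPM in NdLN and 1620 to 1997 in TdLN to 16.5 to 29.0 in Tumor.

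Of the 9 members, 6 had a promoter entry in the RefSeq table (Il33, Il6, Csf1, Csf2rb2, Ltbr and Tnfrsf11a), with 7 windows of 250 bases in all. A kappa-B motif stood in the windows of Csf1 and Il6, an AP-1 motif in that of Il6, a STAT motif in that of Csf2rb2 and a TATA box (TATAAA) in both windows of Il33. Searched on both strands, these motifs occur in 7.25% (kappa-B), 6.75% (AP-1), 7.02% (STAT) and 12.4% (TATA box) of 32851 windows of that length. Ltbr and Tnfrsf11a had none of the 4 in theirs. The matches are letters in a window and no measure of binding.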

How the data were processed

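The table that the authors deposited holds raw counts, whole numbers per gene that were not normalized, for 15 libraries. The tools named are STAR 2.4, featureCounts 1.4.6 and CASAVA 1.8.2, with build GRCm38, per the submitters' processing notes. How featureCounts treated annotation, strand and reads with several matches is not given in the sources used here. Per the labels' protocols, RNA was amplified with a low-input kit and read as single reads. No molecular identifiers were counted, so reads may be copies of 1 molecule, and intervals and floors hold for counting error alone.

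Gene IDs were matched to GENCODE M21 (21628 of 21839), which gave positions and exon lengths, and 3899 genes had 0 counts in every library. Differences were tested in edgeR 4.0.16 (R 4.3.3; TMM, filterByExpr, robust glmQLFit and glmQLFTest) in 1 fit of all 15 libraries. Genes were called at a Benjamini-Hochberg adjusted p under 0.05 over 13887 genes, which gave 484 calls for TdLN against NdLN, 8614 for Tumor against TdLN and 9230 for Tumor against NdLN. The SE comes from the quasi-likelihood F statistic. In a simulation of TdLN against NdLN on 13002 genes, 58% of 100 genes with a fold of 2 were recovered. With a fold of 4, 87% of 100 were, and there were 8 false calls in all. The simulation fitted the TdLN and NdLN libraries alone and drew the noise of each gene independently. Its shares need not hold for the fit of all 15 libraries. No file of a group repeated another (lowest mean chi-square per gene between 2 libraries 27.1). This excludes 1 library deposited a second time but does not show that libraries came from separate animals, since amplification adds to the spread.

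The members, the pathway and marker lists, the tests and the rule for named genes were chosen with earlier results of these data known. Of 72 pathway genes 71 were in the table and 65 were tested. Il18r1, Il3, Il5, Il5ra, Lta and Tnfsf14 were below the filter, and Flt3l was not matched. Named pathway genes were the direct partners of the members and, per list and comparison, the called genes with the smallest adjusted p, apart from those said to be named after their values were seen. Likeness was Pearson's r of log2 CPM (prior count of 2). Alternatives were RLE and upper quartile factors, no filter, a filter at a CPM of 10 in 5 libraries, DESeq2 1.42.0 and voom of limma 3.58.1. Others were only the compared groups, a replicate block, each library left out and, added after seeing the data, NdLN 1 and NdLN 2 left out together. Scaling to Prox1 or to the lymphatic list was done for the members alone and not for pathway genes. Figures were drawn with matplotlib 3.10.9.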

Additional observations from a re-analysis of the deposited data

Results flagged for a closer look

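Among 43 named genes in 3 groups (129 groups of 5 libraries), 12 had a library set apart from the 4 others by more than Dixon's limit for 5 values, which chance passes in about 1 of 20 groups. Il6, the only member among them, was at 1.79 CPM in TdLN 1, and 3.10 to 3.48 CPM in the 4 others. Of the partners, Il1rap was at 6.15 CPM in TdLN 2, Csf2ra at 4.4 in Tumor 4, Ebi3 at 0.901 in Tumor 1 and Lta at 0.173 in TdLN 1. Tnfsf14 was at 0.0949 CPM in TdLN 5 and 0.787 in Tumor 2, Tnfsf11 at 0.782 in Tumor 5 and Tnfrsf11b at 0.228 in NdLN 4. Csf2 stood at 3.07 CPM in TdLN 5. Tumor 1 was low in Jak1, at 194 CPM against 275 to 308, and in Nfkb2, at 22.3 CPM against 46.1 to 54.3. Lta, Tnfsf14, Tnfsf11, Ebi3 and Tnfrsf11b rest on few counts in those libraries.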

How the results depend on the processing

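For the 7 members lower in Tumor than in the nodes, that direction held under every alternative, except for Il7 with scaling to Prox1. Il7 then stood at 0.22 against TdLN and 0.23 against NdLN. Ltbr turned to 1.95 and 2.70 on that scale and to 0.43 and 0.88 with the lymphatic list. Each of these Ltbr values lay below the median of all genes on its scale. Il6 in Tumor against NdLN turned to -0.27 with voom and -0.20 without NdLN 1 and NdLN 2, and ranged from -0.05 to 0.46 with single libraries left out (below 0 without NdLN 1 or Tumor 3). Il6 was not called in Tumor against TdLN with voom or tested with the stricter filter (0 members higher in both). For TdLN against NdLN, Csf1 turned to 0.05 and Il7 to 0.02 with Prox1, Csf2rb2 to -0.06 and Il27ra to -0.05 without NdLN 1 and NdLN 2, and Tnfrsf11a ranged from -0.02 to 0.34 with single libraries left out. In that comparison 1 member was called lower by the fit of only the compared groups and DESeq2 (Il6) and by voom (Il7). Its 484 calls became 986 with DESeq2, 818 with voom, 188 without NdLN 1 and NdLN 2, and 225 to 564 with single libraries left out, falling by over 1.5 times without TdLN 1, 2 or 3 or NdLN 2, 3, 4 or 5. Pathway genes called lower there were 3 with only the compared groups or DESeq2, 4 with voom, 0 without NdLN 1 and NdLN 2, and 0 to 2 with single libraries left out. Those called higher were 1 with only the compared groups, and 0 to 1 with single libraries left out. With the stricter filter, which tests fewer genes, 5 pathway genes rose against TdLN and 4 against NdLN. With the replicate block the calls were 400, 8381 and 8995 in the 3 comparisons, and no member's call changed, while Csf2 lost its call against TdLN (-2.50). Same-numbered libraries correlated at -0.21 to 0.248 in their deviations from group means, and 4 of 15 pairs correlated best with their own number. That does not settle whether libraries of the same number came from the same animals, which the labels do not say. Why values or calls shifted between alternatives was not tested. Depth limits Csf2rb2 in Tumor (56 counts) most among the members.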
